A study of Mus musculus with 6 samples.

Results

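The genes described here are 43 DNA replication and S-phase genes, followed in the epidermis of newborn mice with and without the Polycomb protein Eed. They were taken by symbol from a list of genes for replication origins, DNA polymerases, nucleotide synthesis, chromatin assembly and fork repair. No threshold on measured values picked them, but the list was chosen with earlier results of these data known. All 43 were found among the 24453 gene symbols of the count files. Polycomb repressive complex 2 (PRC2) places a repressive methyl mark on histone H3, and Eed is one of its core subunits. The comparison was between 3 control RNA-seq libraries, with the genotype given only as Control, and 3 Eed cKO libraries (conditional knockout), with the genotype given as Eed-/-. All came from the back skin of mice at postnatal day 0. Cells of the interfollicular epidermis, the skin surface epithelium between hair follicles, were sorted as EpCAM positive, Sca1 positive and high for α6-integrin, a gate that enriches for basal progenitors. The promoter that drove the Cre recombinase, the deleted exons, the alleles of the controls and the animals' sex were not stated in the labels. Nothing there states that the libraries came from separate animals, so every p-value below measures the spread between these libraries, which may be in part technical.

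A cell copies its DNA once per division. Before S phase the origin recognition complex, with Cdc6 and Cdt1, loads the ring-shaped MCM helicase onto origins; kinases, Cdc45 and the GINS complex then switch the helicase on, and polymerases, a sliding clamp and ligase copy the strands behind it. Most genes of this machinery are transcribed as cells enter S phase, under E2F transcription factors, and in the epidermis dividing cells are found mainly in the basal layer.

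Each library held between 20998149 and 29998531 counts, and 16168 to 17289 symbols had at least 1 count. Values are counts per 1000000 counts, scaled between libraries by the trimmed mean of M-values (CPM), given in the order control 1, 2 and 3, then Eed cKO 1, 2 and 3. Log2 fold changes, their standard errors (SE) and p-values are from edgeR's quasi-likelihood test, fitted to the 14700 genes with enough counts and adjusted over all of them by the Benjamini-Hochberg method; a gene was called at an adjusted p under 0.05. All 43 members were among the genes tested, with 27 to 6523 counts in a library, and 41 had at least 100 counts in each of the 6. Basal keratin genes fitted the sort (Krt5 at 18415 to 25693 CPM), while Krt10, a keratin of the suprabasal layer, was also present at 754 to 946 CPM in control and 1551 to 2428 in Eed cKO. Eed itself was measured at 45.1, 41.1 and 53.1 CPM in control and at 37.0, 33.7 and 29.2 in Eed cKO (log2 fold change -0.48, edgeR adjusted p = 0.252). The Eed cKO libraries were all below the controls without the gene passing the test, and counts over a whole gene check the loss of some exons poorly.

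Of the 43 members, 9 (20.9%) fell in Eed cKO and 0 rose. Over all genes tested, 0.816% were called lower and 3.39% higher. The 9 were Cdt1 and Mcm6 of origin licensing, Recql4 of helicase activation, Prim1 and Pole of the polymerases, Lig1 of Okazaki fragment joining, Tyms of nucleotide synthesis, and Brca1 and Brca2 of fork repair. They were between 1.57-fold (Mcm6) and 3.47-fold (Recql4) lower. The other 34 did not pass the test. All 43 had a log2 fold change below 0, as had 51.3% of all genes tested, with a median of -0.62 against -0.01 over all genes and a range of -1.80 to -0.26. In 30 members (69.8%) the 3 Eed cKO values were all lower than the 3 control values, against 9.22% of all genes tested, and in the other 13 the groups overlapped. Among the 30, Pcna was apart by a margin below the printed digits. At an unadjusted p under 0.05 there were 31 members lower and 0 higher, where 6.24% of all genes were lower by this rule. By DESeq2, 14 members fell, the 9 included, and 0 rose, with 1.64% of its genes called lower; without the filter on low counts, edgeR called 16 lower (1.31% of all genes). With 1 library left out, edgeR called 3, 1 and 2 members lower without control 1, 2 and 3 (0.57%, 0.39% and 0.23% of all genes) and 5, 5 and 2 without Eed cKO 1, 2 and 3 (0.785%, 0.337% and 0.291%).

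**Figure D1:**
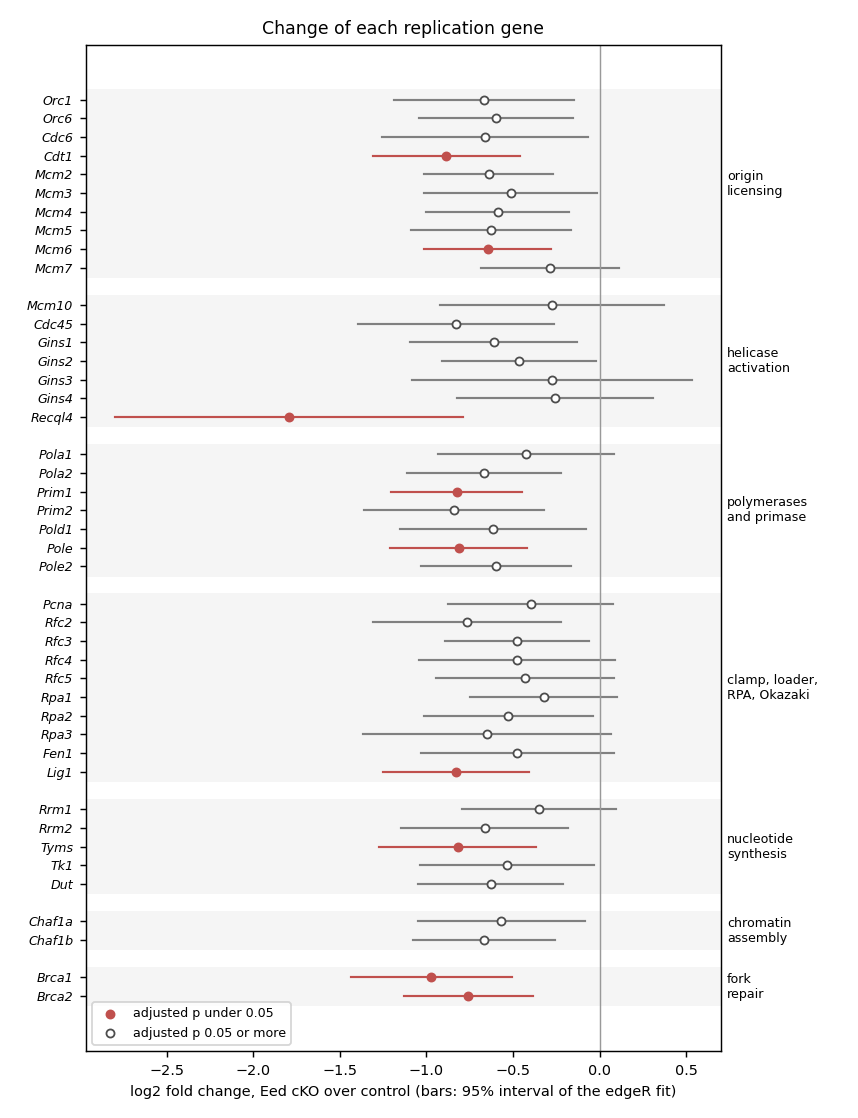
Log2 fold change of each of the 43 members (horizontal axis, Eed cKO over control, edgeR) with its 95% interval, grouped by role; filled markers passed the adjusted p threshold and open markers did not. All 43 estimates lie below 0, from -1.80 for Recql4 to -0.26 for Gins4.

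The members moved by library as well as by group. Their summed level was 2691, 2738 and 2808 CPM in the controls and 1525, 2168 and 1705 CPM in Eed cKO, so the groups did not overlap and the Eed cKO libraries differed more among themselves. Relative to each gene's control mean, the median member stood at log2 -0.83 in Eed cKO 1, -0.38 in Eed cKO 2 and -0.70 in Eed cKO 3, against -0.08, 0.00 and 0.02 in the controls. Eed cKO 2 was the highest of its group for 31 members and the lowest for 2, yet 31 members there were still below all controls, against 40 in each of the other Eed cKO libraries. Eed cKO 2 also differed from the other 5 libraries in Xist, the RNA that coats the inactive X chromosome, at 8.55 CPM against 5297 to 7757. Without Eed cKO 2 the median log2 fold change of the members was -0.76, and without Eed cKO 1 it was -0.54.

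**Figure D2:**
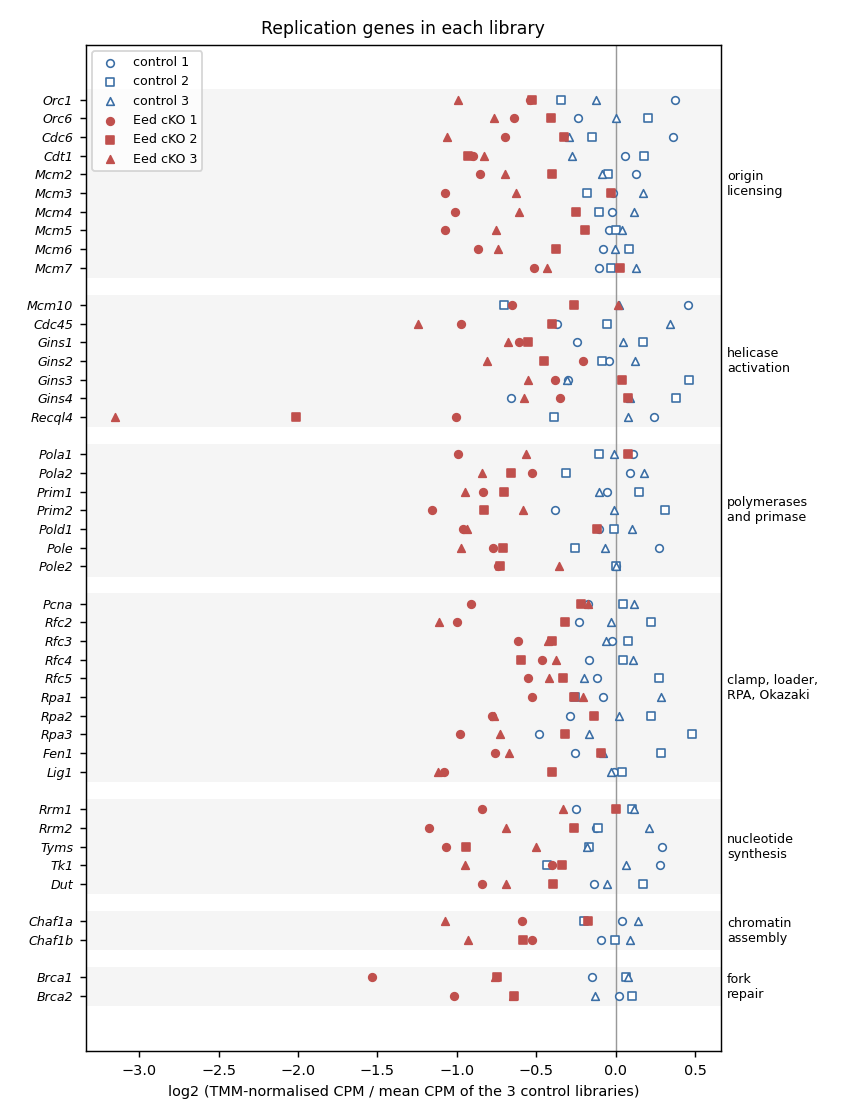
Level of each member in each of the 6 libraries, as log2 of CPM over that gene's control mean (horizontal axis), with members in rows by role. Open markers are control and filled markers are Eed cKO, and the marker shape gives the library number. The Eed cKO points are below the control mean nearly throughout, with Eed cKO 2 nearest to it for most members.

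Other measures also differed between the groups. The 9 tested suprabasal keratinocyte markers summed to 3341 to 4385 CPM in control and 5119 to 8142 in Eed cKO, with Krt10 and Spink5 called higher and 0 lower. The 8 basal markers summed to 32860 to 39010 CPM in control and 28803 to 37731 in Eed cKO, with Epcam alone called (higher). Macrophage and Langerhans cell markers summed to 172 to 566 CPM in control and 89.5 to 394 in Eed cKO, with Cx3cr1 lower and Cd207, which defines Langerhans cells, at 0 counts in 4 of the 6 libraries. Fibroblast markers summed to 1736 to 2459 CPM in control and 1434 to 1498 in Eed cKO, with Postn, called lower, making up most of the sum. Hair follicle markers summed to 441 to 795 CPM in control and 703 to 798 in Eed cKO, with Krt71 lower and Krt79 higher, and the sums of melanocyte markers (8.63 to 25.5 and 10.7 to 18.9 CPM) and endothelial markers (5.02 to 33.9 and 6.06 to 32.7 CPM) overlapped. Merkel cell markers summed to 0.195 to 1.82 CPM in control and 7.75 to 14.1 in Eed cKO, with Isl1 and Sox2 higher. The ribosomal RNA precursor Rn45s took 2.18% to 5.24% of counts in control and 6.78% to 7.26% in Eed cKO; with that gene left out, 8 members were called lower (0.762% of all genes), Mcm6 being lost at an edgeR adjusted p of 0.0571. The part of these differences in the levels of the replication genes was not tested. In bulk RNA, fewer cells in S phase and less of each RNA per cell cannot be told apart.

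The promoters of the members were read for E2F motifs because E2F factors are the known regulators of this gene group. A RefSeq table (GRCm38.p6) gave, for 35 of the 43 symbols, the 250 bases before each transcription start and the 50 after it; 4 motif sequences (TTTCCCGC, TTTCGCGC, TTTGCCGC and TTTGGCGC) were searched on both strands. A match was found for 14 of the 35 members (40%), against 2.6% of all 27025 symbols of the table, 4.46% of the tested genes with a promoter there, 21.8% of 55 other replication genes and 4.17% of 24 genes of mitosis. The 20 matches lay between 168 bases before and 47 bases after the start. For each of the 14 members the match nearest the start is shown with its flanking bases, from 5′ to 3′ on the strand that carries the motif, with the motif in capitals.
Orc1 (chr4:108579419-108579442, motif on the minus strand): agaaaactTTTCGCGCcactaacc
Cdc6 (chr11:98908005-98908028, motif on the minus strand): ccaggcgaTTTCCCGCtctccacc
Cdt1 (chr8:122568039-122568062, motif on the plus strand): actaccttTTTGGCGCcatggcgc
Mcm3 (chr1:20820278-20820301, motif on the plus strand): tcccaagtTTTCCCGCcacggaag
Mcm5 (chr8:75109352-75109375, motif on the minus strand): ctggacgtTTTGGCGCgaaagttc
Mcm6 (chr1:128359737-128359760, motif on the minus strand): tggacgggTTTGGCGCgaagtagc
Mcm7 (chr5:138171852-138171875, motif on the minus strand): tgacgacgTTTCGCGCcaatttcg
Gins3 (chr8:95633510-95633533, motif on the minus strand): aaactcgcTTTCCCGCgccgcact
Pola1 (chrX:93632278-93632301, motif on the plus strand): ggagtgcaTTTGGCGCcctgtgat
Pold1 (chr7:44548766-44548784, motif on the plus strand): gctTTTCCCGCcacaagat
Pole2 (chr12:69228165-69228188, motif on the plus strand): gttcgcgaTTTGGCGCcaccgccg
Rfc3 (chr5:151651193-151651216, motif on the plus strand): agtagagtTTTCCCGCgagcgcga
Lig1 (chr7:13278844-13278867, motif on the minus strand): cacacagaTTTCGCGCgcactttg
Brca2 (chr5:150522445-150522468, motif on the minus strand): tgtgtctgTTTCCCGCtgtggcct
Of these 14 members, Cdt1, Mcm6, Lig1 and Brca2 fell in Eed cKO. In Mcm5 and Mcm6, both subunits of the MCM ring, a pair of matches on opposite strands overlap to form a nearly symmetric block. The 250 bases before the start of each are shown on the gene's strand, with every match in capitals.
Mcm5 (chr8:75109259-75109508, plus strand): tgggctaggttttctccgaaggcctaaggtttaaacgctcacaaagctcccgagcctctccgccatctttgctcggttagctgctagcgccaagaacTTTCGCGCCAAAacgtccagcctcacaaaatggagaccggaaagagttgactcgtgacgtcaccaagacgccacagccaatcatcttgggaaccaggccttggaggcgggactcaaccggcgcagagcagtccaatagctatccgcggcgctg
Mcm6 (chr1:128359706-128359955, minus strand): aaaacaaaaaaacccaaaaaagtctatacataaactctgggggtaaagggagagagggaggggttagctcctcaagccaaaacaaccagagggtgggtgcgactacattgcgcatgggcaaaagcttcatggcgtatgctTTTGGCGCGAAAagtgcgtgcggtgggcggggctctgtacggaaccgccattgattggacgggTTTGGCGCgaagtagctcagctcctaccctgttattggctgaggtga
Members with a match had a median log2 fold change of -0.62 (n = 14, of which 4 were called), those with a promoter and no match -0.60 (n = 21, of which 3 were called), and those with no promoter in the table -0.69 (n = 8, of which 2 were called). The difference between these groups was not tested. CCAAT, a box common in cell cycle promoters, was found for 60% of the 35 members and 83.3% of the 24 genes of mitosis. That share was 41.1% of all symbols of the table and 42.4% of the tested genes with a promoter there. A match is a description of the letters and does not show binding.

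**Figure D3:**
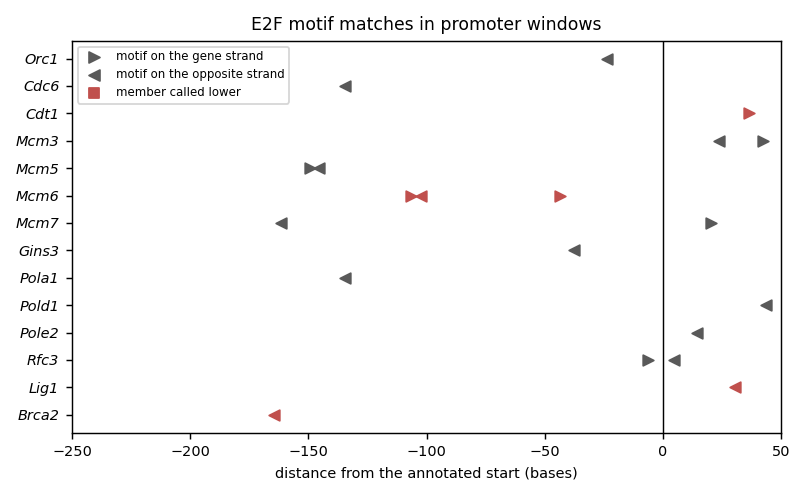
Position of each E2F motif match in the members' promoters, in bases from the transcription start (horizontal axis), with 1 row per member. The matches run from 168 bases before to 47 bases after the start.

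The first role is origin licensing, with 10 members: Orc1, Orc6, Cdc6, Cdt1 and the 6 MCM subunits Mcm2 to Mcm7. Of these, 2 fell, 0 rose, and 8 had Eed cKO values all lower than control, with a median log2 fold change of -0.63. For this and each later role, the shares over all genes tested were 0.816% called lower and 9.22% with all Eed cKO values lower. Cdt1 (chromosome 8, 122568015 to 122573554, GRCm38), the factor that brings the MCM ring to the origin, was measured at 47.8, 52.0 and 38.0 CPM in control and at 24.7, 24.2 and 25.8 in Eed cKO. The Eed cKO libraries were close to each other and all below the lowest control. The mean of 45.9 ± 7.17 CPM (SD, n = 3) in control and 24.9 ± 0.839 (SD, n = 3) in Eed cKO gave a log2 fold change of -0.89 ± 0.20 (SE; 95% interval -1.31 to -0.46; adjusted p = 0.0198 by edgeR), or 1.85-fold lower. The call was kept without control 3 or Eed cKO 1 and lost without any other single library, with an adjusted p of up to 0.0889.

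Mcm6 (chromosome 1, 128331590 to 128359664) stood at 164, 184 and 173 CPM in control and at 95.1, 133 and 104 in Eed cKO. The groups were apart, with Eed cKO 2 the nearest to control. Its log2 fold change was -0.65 ± 0.17 (SE; adjusted p = 0.0496 by edgeR), close to the threshold, and the call was kept in 1 of the 6 fits that leave out a library, that without Eed cKO 2. The other 5 ring subunits did not pass the test. Mcm2 was nearest to it, at 136, 120 and 117 CPM in control and 68.7, 94.0 and 76.7 in Eed cKO, with no overlap (log2 fold change -0.64, edgeR adjusted p = 0.0563). Mcm4 and Mcm5 also did not overlap (log2 fold changes -0.59 and -0.63), whereas Mcm3 and Mcm7 did. Mcm7 stood at 83.8, 88.3 and 98.4 CPM in control and at 63.0, 91.7 and 66.9 in Eed cKO, with a log2 fold change of -0.29 (95% interval -0.69 to 0.11). Without Eed cKO 2, Mcm5 was called, at an edgeR adjusted p of 0.0389.

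Per kilobase of transcript (RPKM, CPM divided by the length of the principal transcript), the ring subunits summed to 239, 237 and 253 RPKM in control and to 131, 208 and 155 RPKM in Eed cKO. The 6 proteins form the ring in equal numbers, but their RNA levels were unequal: Mcm6 at 59.6 ± 3.48 and Mcm4 at 58.0 ± 4.49 RPKM (SD, n = 3) led in control, and Mcm5 was the lowest at 25.3 ± 0.709. Mcm5 was the lowest in all 6 libraries, and Mcm4 was the highest in 4 and Mcm6 in the other two. In Eed cKO, Mcm6 stood at 38.1 ± 6.92, Mcm4 at 38.5 ± 10.1, Mcm7 at 24.9 ± 5.25, Mcm2 at 23.7 ± 3.84, Mcm3 at 23.0 ± 8.42 and Mcm5 at 16.4 ± 5.19 RPKM (SD, n = 3), so that Mcm7, Mcm2 and Mcm3 did not differ beyond their spread. The share of Mcm7 in the summed level was 11.8% to 13.1% in control and 14.5% to 16.3% in Eed cKO. These ranges did not overlap, while those of the other 5 shares did; with 3 libraries a group an exact two-sided permutation test cannot go below p = 0.1, the value it gave for Mcm7 (0.6 after adjustment over the 6 subunits).

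**Figure D4:**
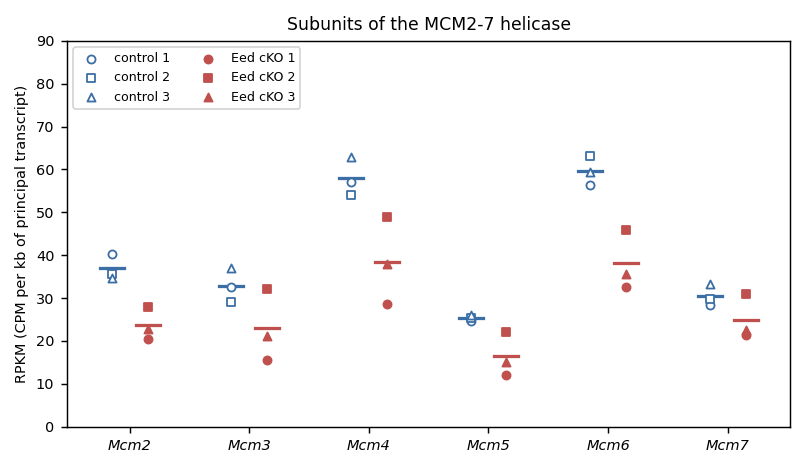
Level of the 6 MCM ring subunits in RPKM (vertical axis) in each control and Eed cKO library (points), with a line at the group mean. Mcm4 and Mcm6 lead in both groups and Mcm5 is lowest.

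The remaining licensing genes did not pass the test. Orc1, the ATPase subunit of the origin recognition complex, stood at 39.3, 24.0 and 27.9 CPM in control and 20.9, 21.1 and 15.3 in Eed cKO (log2 fold change -0.67, edgeR adjusted p = 0.177). Orc6, its smallest subunit, stood at 31.9, 43.2 and 37.6 CPM against 24.1, 28.3 and 22.0 (log2 fold change -0.60). Cdc6, the ATPase that joins the complex to load the ring, stood at 25.5, 17.8 and 16.1 CPM against 12.2, 15.8 and 9.49 (log2 fold change -0.66). In all 3 the Eed cKO libraries were below the controls, in Cdc6 by a narrow margin.

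Helicase activation has 7 members, of which 1 fell and 4 had no overlap between groups, with a median log2 fold change of -0.47. Recql4, a RecQ family helicase needed to start forks, showed the largest difference of the 43 members: 13.7, 8.88 and 12.3 CPM in control and 5.79, 2.89 and 1.31 in Eed cKO. It was also among the lowest in level, and its 27 counts in Eed cKO 3 were the fewest of any member in any library. Its log2 fold change was -1.80 ± 0.47 (SE; 95% interval -2.80 to -0.79; adjusted p = 0.0466 by edgeR), and the call was kept in 1 of the 6 fits that leave out a library, that without Eed cKO 1, where the log2 fold change was -2.46. Recql4 (chromosome 15, 76703553 to 76710548) shares 422 of its 4342 exonic bases with Mfsd3, so its count may hold reads of that gene. Cdc45, part of the active helicase, stood at 24.6, 30.5 and 40.2 CPM in control and 16.1, 24.0 and 13.4 in Eed cKO, with no overlap and no call (log2 fold change -0.83, edgeR adjusted p = 0.111).

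The GINS complex, which holds Cdc45 on the MCM ring, has 4 subunits, and none was called. Gins1 stood at 19.0, 25.3 and 23.2 CPM in control and 14.8, 15.4 and 14.0 in Eed cKO, and Gins2 was also lower without overlap (log2 fold changes -0.61 and -0.47). Gins4 stood at 25.0, 51.3 and 42.0 CPM in control and 30.9, 41.5 and 26.5 in Eed cKO, within the spread of the controls (log2 fold change -0.26, 95% interval -0.82 to 0.31). Gins3, at 4.74 to 9.55 CPM over the 6 libraries, had a log2 fold change of -0.28 (95% interval -1.08 to 0.53). Mcm10, which joins helicase and polymerase, stood at 26.3, 11.8 and 19.4 CPM in control and 12.2, 16.0 and 19.4 in Eed cKO, a complete overlap. For Gins3, Gins4 and Mcm10 the intervals reach from differences as large as those of the called members to values above 0.

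Of the 7 polymerase and primase members 2 fell, 0 rose and 6 had Eed cKO values all below control, with a median log2 fold change of -0.67. Prim1 (chromosome 10, 128015168 to 128030037), the catalytic subunit of the primase that lays the RNA primers, stood at 71.2, 81.7 and 68.8 CPM in control and 41.5, 45.3 and 38.2 in Eed cKO. The highest Eed cKO value was well below the lowest control. The log2 fold change was -0.83 ± 0.18 (SE; adjusted p = 0.0156 by edgeR), 1.77-fold lower and the smallest adjusted p of the 43 members, and leaving out control 2 or Eed cKO 3 ended the call (adjusted p up to 0.0838). Prim2, the other primase subunit, stood at 24.3, 39.2 and 31.4 CPM in control and 14.2, 17.8 and 21.1 in Eed cKO (log2 fold change -0.84, edgeR adjusted p = 0.0745). Its difference was as large as that of Prim1 with a wider spread, and it was called without control 1 (adjusted p = 0.0414).

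Pole (chromosome 5, 110286306 to 110337474), the catalytic subunit of the leading strand polymerase ε, stood at 141, 97.5 and 111 CPM in control and 68.1, 71.1 and 59.2 in Eed cKO. The controls were spread more widely than the Eed cKO libraries, and the groups were apart. Its log2 fold change was -0.81 ± 0.18 (SE; adjusted p = 0.0208 by edgeR); the call was kept without control 2 or Eed cKO 1 and lost without any other single library (adjusted p up to 0.112). Pole2, its second subunit, stood at 35.3, 35.2 and 35.3 CPM in control and 21.1, 21.3 and 27.5 in Eed cKO (log2 fold change -0.60, edgeR adjusted p = 0.135). Pola2, a subunit of the primase-bound polymerase α, and Pold1, the catalytic subunit of the lagging strand polymerase δ, had no overlap and no call (log2 fold changes -0.67 and -0.62). Pola1, the catalytic subunit of polymerase α, is X-linked and overlapped, at 86.2, 74.3 and 79.2 CPM in control and 40.1, 84.3 and 53.9 in Eed cKO, where the high value is again that of Eed cKO 2.

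Among the 10 genes for the sliding clamp, its loader, the single-strand binding protein RPA and Okazaki fragment processing, 1 fell and 0 rose, with a median log2 fold change of -0.48; 6 did not overlap. Lig1 (chromosome 7, 13277283 to 13311433), the ligase that joins Okazaki fragments, was the highest member per length in control at 63.0 RPKM. It stood at 199, 205 and 196 CPM in control and 94.4, 151 and 92.0 in Eed cKO. The controls were nearly equal, and Eed cKO 2 lay between them and the other Eed cKO libraries. The log2 fold change was -0.83 ± 0.20 (SE; adjusted p = 0.0287 by edgeR), and of the 6 fits that leave out a library the call was kept in that without Eed cKO 2 alone (adjusted p up to 0.158).

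Pcna, the sliding clamp itself and a common marker of S phase, was not called. It stood at 40.7, 47.3 and 49.7 CPM in control and 24.4, 39.5 and 40.7 in Eed cKO (log2 fold change -0.40, 95% interval -0.87 to 0.08). The lowest control and the highest Eed cKO value were equal to all printed digits. Pcna was counted as not overlapping by a smaller margin than that. The clamp loader subunits Rfc2, Rfc3, Rfc4 and Rfc5 were all lower without overlap and without a call, with log2 fold changes of -0.77, -0.48, -0.48 and -0.43. The RPA subunits Rpa1, Rpa2 and Rpa3 overlapped (log2 fold changes -0.32, -0.53 and -0.65), as did Fen1, the flap nuclease (-0.48). Fen1 shares 2039 of its 2422 exonic bases with genes on the opposite strand, so its count is uncertain.

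Nucleotide synthesis has 5 members, of which 1 fell and 0 rose, with a median log2 fold change of -0.63. Tyms (chromosome 5, 30058202 to 30073617), the thymidylate synthase, stood at 87.9, 63.8 and 63.3 CPM in control and 34.2, 37.2 and 50.5 in Eed cKO. Here Eed cKO 3 was the nearest to control, unlike most members. The log2 fold change was -0.82 ± 0.21 (SE; adjusted p = 0.0436 by edgeR), and the call was kept without Eed cKO 3 and lost without any other single library (adjusted p up to 0.176). Dut, which clears dUTP, had no overlap at 47.6, 58.9 and 50.3 CPM in control and 29.2, 39.7 and 32.4 in Eed cKO (log2 fold change -0.63, edgeR adjusted p = 0.101). Rrm2, the S-phase subunit of ribonucleotide reductase, stood at 71.4, 72.1 and 90.2 CPM against 34.5, 64.9 and 48.3 (log2 fold change -0.66, edgeR adjusted p = 0.140). Rrm1, its large subunit, overlapped at 163, 208 and 210 CPM against 108, 194 and 154 (log2 fold change -0.35), and so did Tk1, the thymidine kinase of S phase (log2 fold change -0.54).

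Chaf1a and Chaf1b, the large and middle subunits of the histone chaperone CAF-1 that places histones on new DNA, were not called. Chaf1b stood at 46.7, 49.7 and 53.0 CPM in control and 34.6, 33.3 and 26.1 in Eed cKO, apart (log2 fold change -0.67, edgeR adjusted p = 0.0733). Chaf1a overlapped at 70.1, 59.1 and 74.9 CPM against 45.1, 60.2 and 32.2 (log2 fold change -0.57), and 4648 of its 8854 exonic bases are shared with Ubxn6 on the opposite strand. Brca1 and Brca2, which protect and repair stalled forks by homologous recombination, both fell. Brca1 (chromosome 11, 101488764 to 101551955) stood at 83.9, 97.2 and 98.2 CPM in control and 32.1, 55.4 and 55.0 in Eed cKO. With a log2 fold change of -0.97 ± 0.22 (SE; 95% interval -1.43 to -0.51; adjusted p = 0.0197 by edgeR) it was 1.96-fold lower, and leaving out control 2 or control 3 ended the call (adjusted p up to 0.0810). Brca2 (chromosome 5, 150522630 to 150570329) stood at 118, 125 and 107 CPM in control and 57.6, 74.7 and 74.6 in Eed cKO. Its log2 fold change was -0.76 ± 0.17 (SE; adjusted p = 0.0232 by edgeR), but the call was lost in each of the 6 fits that leave out a library (adjusted p 0.0542 to 0.0901). For both genes the lowest value was that of Eed cKO 1.

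A second list held 67 other genes of DNA replication, of which 66 were tested. In it 5 (7.58%) fell, 0 rose and 61 did not pass, where 0.816% of all genes tested were called lower and 3.39% higher. The log2 fold change was negative for 55 (83.3%), against 51.3% of all genes tested, with a median of -0.46 in the list. At an unadjusted p under 0.05 there were 28 lower and 0 higher, where 6.24% of all genes were lower by this rule. Ticrr (chromosome 7, 79660196 to 79698148), which helps kinases fire origins, had the smallest adjusted p of either list. It stood at 160, 149 and 140 CPM in control and 81.9, 65.1 and 71.2 in Eed cKO. The libraries within each group were close, and the groups were 2.05-fold apart (log2 fold change -1.04 ± 0.17, SE; 95% interval -1.39 to -0.68; adjusted p = 0.00214 by edgeR). Its call was kept without any single library (adjusted p at most 0.0180), whereas each called member lost its call in at least 2 of those 6 fits.

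Of the other called genes of that list, Clspn, which links stalled forks to the checkpoint kinase, stood at 115, 84.3 and 91.0 CPM in control and 42.3, 63.7 and 49.9 in Eed cKO (log2 fold change -0.90, edgeR adjusted p = 0.0202). Atad5, which unloads the clamp, stood at 175, 143 and 165 CPM against 85.1, 108 and 106 (log2 fold change -0.69, edgeR adjusted p = 0.0320). Slbp, which binds the stem-loop of histone RNAs, stood at 59.8, 42.2 and 50.7 CPM against 23.1, 32.2 and 30.0 (log2 fold change -0.84, edgeR adjusted p = 0.0373). Blm, a RecQ helicase like Recql4, stood at 68.0, 54.5 and 59.9 CPM against 36.0, 40.9 and 35.7 (log2 fold change -0.70, edgeR adjusted p = 0.0481). All 4 had groups apart, and each call was lost in at least 4 of the 6 fits that leave out a library, Blm in all 6. The largest rise of the list was that of Xrcc2, a recombination factor, at 5.50, 1.53 and 4.80 CPM in control and 5.76, 7.43 and 6.05 in Eed cKO, not called (log2 fold change 0.70, edgeR adjusted p = 0.570).

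In some complexes, though not in all, the members belong with subunits from the second list whose estimates were near 0. Log2 fold changes of Orc2, Orc3, Orc4 and Orc5 were -0.16, -0.16, -0.21 and -0.09, beside -0.67 for Orc1 and -0.60 for Orc6. Pole3 and Pole4, small histone-fold subunits of polymerase ε, were at 0.01 and 0.02, beside -0.81 for Pole and -0.60 for Pole2. Rrm2b, the reductase subunit used outside S phase, was at 0.03. Outside the complexes, the mitochondrial thymidine kinase Tk2 was at 0.25. None of these 8 was called, which does not show that they were unchanged. The intervals of Orc4 (-0.74 to 0.33) and Orc5 (-0.68 to 0.50) reached the estimates of Orc1 and Orc6. That of Tk2 (-0.68 to 1.18) reached the estimate of Tk1. Those of Orc2 (-0.61 to 0.29) and Pole3 (-0.75 to 0.77) reached Orc6 and Pole2 but not Orc1 and Pole. The intervals of Orc3 (-0.56 to 0.23), Pole4 (-0.47 to 0.51) and Rrm2b (-0.61 to 0.67) stopped short of Orc6, Pole2 and Rrm2. Polymerase δ went the other way, with Pold2 and Pold3 of the second list at -0.38 and -0.43, not called, beside -0.62 for Pold1. The contrast between partners was described by 5 ratios of summed RPKM. They were chosen after the values had been seen, so their p-values are no test of it. Pole plus Pole2 over Pole3 plus Pole4 stood at 2.53, 1.83 and 2.05 in control and 1.42, 1.11 and 1.41 in Eed cKO. The groups were apart, with a log2 difference of -0.70 and an exact two-sided permutation p of 0.1, the smallest that 3 against 3 can give (0.25 after adjustment over the 5 ratios). The ratio of Tk1 to Tk2 was also lower without overlap, at 17.1, 15.9 and 15.9 against 15.2, 14.2 and 4.59, whereas those of Orc1 and Orc6 to the other ORC subunits, of Rrm2 to Rrm2b, and of the small loader subunits to Rfc1 overlapped. None passed the threshold, which this design cannot reach.

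Of 28 genes of mitosis, all tested, 3 (10.7%) fell and 0 rose, where 0.816% of all genes tested were called lower. All 28 had a negative log2 fold change, with a median of -0.54, against 51.3% negative over all genes tested. The called ones were Mki67 (log2 fold change -0.79, edgeR adjusted p = 0.00765), Top2a (-0.92, 0.0164) and Aurkb (-0.86, 0.0162). Of the 6 fits that leave out a library, Mki67 kept its call in all 6, Top2a in 2 and Aurkb in 3. The summed level of the 28 was 4108, 5496 and 4845 CPM in control and 2756, 3333 and 3109 in Eed cKO. The sums did not overlap, and control 1 was the lowest of its group. Gene by gene, Eed cKO values were all below control in 7 of the 28 (25%). That share was 9.22% over all genes tested, 69.8% in the 43 members and 43.9% in the other replication genes. The difference between the lists was not tested.

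**Figure D5:**
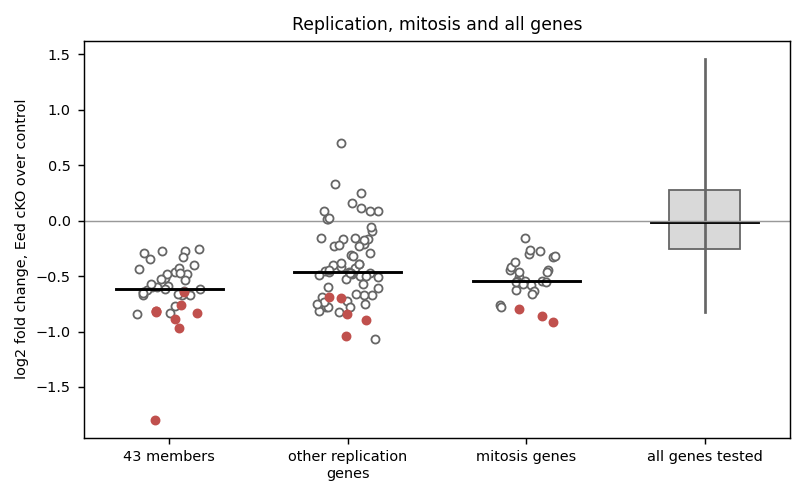
Log2 fold changes (Eed cKO over control, edgeR) of the 43 members, the other replication genes and the mitosis genes, with 1 point per gene (filled where called) and a line at the median; for all genes tested, the box spans the 25th to 75th and the line the 5th to 95th percentiles. The medians are -0.62, -0.46 and -0.54, against -0.01 over all genes tested.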

How the data were processed

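RNA-seq counts per gene symbol were deposited by the authors, 1 file for each of 6 libraries (3 control, 3 Eed cKO), from amplified total RNA of sorted cells. Per the submitters' processing notes, the tools were HTSeq 0.6.1, TopHat2 2.0.13, DESeq2 1.6.3 and Cufflinks 2.2.1, and the build was mm10. No source states the annotation or strand setting of the counting. The 17 members that share exonic bases with another gene (GENCODE M21) therefore have uncertain counts, above all Gins2, Fen1 and Chaf1a. Reads were of amplified cDNA without molecular identifiers, so duplicates cannot be told from molecules.

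The deposited counts were fitted in R 4.3.3 with edgeR 4.0.16 (TMM, filterByExpr, quasi-likelihood F-test, genotype alone), adjusted over 14700 genes; 9753 symbols were not tested. Alternatives were RLE and upper-quartile scaling, other filters, robust dispersion, a replicate block, DESeq2 1.42.0, limma-voom (3.58.1), each library left out and, added after seeing the data, Rn45s left out. RPKM used the principal transcript's length, so levels of genes with several long transcripts are approximate. The steps of the main edgeR fit, but not the other fits, the ratios or the promoter search, were tested on simulated counts. All members were described. Of the other lists, called genes, those with the smallest p-values and the largest rise were named. The ORC, polymerase ε, polymerase δ, reductase and kinase partners were named after their values were seen. Members and lists were chosen with earlier results of these data known.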

Additional observations from a re-analysis of the deposited data

How the results depend on the processing

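The direction of the 43 members depended little on the processing: 643 of 645 values over 15 alternatives were negative, and the median log2 fold change stayed between -0.76 and -0.54. The exceptions were Mcm10, whose log2 fold change ran from -0.5142 to 0.0206 (without control 1) over the fits that leave out a library, and Gins3, from -0.4576 to 0.0408 (without control 2). Outside the members, the PRC2 gene Ezh1 ran from -0.1666 to 0.0282, above 0 without control 2 (0.0167) and without Eed cKO 3. Which members were called did depend on it. Against 9 members, 5 other replication genes, 3 mitosis genes and 619 genes in all, no filter on low counts gave 16, 10, 8 and 994 (1.31% of genes lower), and DESeq2 gave 14, 11, 5 and 1087 (1.64% lower). Leaving out 1 library at a time gave 1 to 5 members (0.23% to 0.785% of genes lower), 1 to 4 other replication genes, 1 to 8 mitosis genes and 346 to 542 genes in all. RLE scaling lost Mcm6 and upper-quartile scaling lost Recql4. A replicate block by the number in the labels gave 17 members (1.83% of genes lower), 11 other replication genes, 9 mitosis genes and 944 genes in all. The deviations of same-numbered libraries correlated at 0.23, 0.11 and -0.0014, and control 3 was closer to Eed cKO 2, so the numbers were not taken to pair the libraries. All 9 calls were shared with no filter, DESeq2, limma-voom and the block. No member was called higher in any of these fits. The causes were not tested. Of the 43 members, 41 had at least 100 counts in every library; Recql4 had 27 to 367.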
